A study of Homo sapiens with 6 samples.

Results

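The genes described here are the transcriptional coactivators YAP1 and WWTR1 (the gene of TAZ), the DNA-binding factors TEAD1 and TEAD4, and 6 genes that YAP and TAZ are known to switch on, namely LATS2, AMOTL2, ANKRD1, AXL, CYR61 and CTGF. They were taken by gene symbol, and all 10 were found among the 60546 genes of the table, where CYR61 and CTGF are written CCN1 and CCN2. RNA-seq was performed in HCT-116, an established human colon carcinoma cell line, made stable with the viral vector PMSCV carrying human GOLPH3 (3 libraries, here GOLPH3 1, 2 and 3) or with the empty PMSCV vector (3 libraries, Vector 1, 2 and 3). The labels give all 6 libraries the genotype wild type and, as treatment, only the lysis reagent Trizol. The paper states puromycin selection for the GOLPH3-overexpressing line and does not state it for the Vector line. HCT-116 was grown in DMEM with fetal bovine serum. Each group is a single stable line sampled at different generations, so p-values measure the spread between samples of a line and not between lines derived independently. Titles also hold a P number that the labels do not explain. It reads P8, P12 and P13 in GOLPH3 1, 2 and 3, and P12, P11 and P13 in Vector 1, 2 and 3.

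In the Hippo pathway, the kinases MST1 and MST2 (STK4 and STK3) activate LATS1 and LATS2, which phosphorylate YAP and TAZ and keep them out of the nucleus. When this brake is released, for example in sparse, spread or serum-stimulated cells, YAP and TAZ enter the nucleus and bind TEAD factors on DNA, since they have no DNA-binding domain of their own. Their activity is mainly set by phosphorylation and location, which RNA-seq does not measure, so the RNA of their targets is commonly used as a readout.

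The libraries held 15708846 to 21900764 reads assigned to genes, and mitochondrial genes took 4.41% to 9.97% of them. The deposited values are reads divided by a size factor per library, called normalized reads here. At 0 reads the counting error alone allows up to 3, equal to 2.47 to 3.29 normalized reads depending on the library. The GOLPH3 transcript itself had 1629.5, 1272 and 1384 normalized reads in GOLPH3 1, 2 and 3 and 1968, 1892 and 1472 in Vector 1, 2 and 3 (log2 difference -0.31, limma adjusted p = 0.609), so the groups are named by their labels only. Of the colon epithelial markers checked, EPCAM, CDH1, KRT8, KRT18 and KRT19 were abundant in every library. KRT20 had 0 reads throughout, CDX1 had at most 1 read and VIL1 had at most 3.30 normalized reads. LGALS4, GPA33, CDH17, CEACAM5 and TSPAN8 were low too, with at most 5.37, 7.2, 9.66, 10.3 and 15.3 normalized reads in any library. CDX2, an intestinal transcription factor, had 247, 261 and 358 normalized reads in GOLPH3 1, 2 and 3 and 415, 184 and 897 in Vector 1, 2 and 3 (log2 difference -0.52, limma adjusted p = 0.636). KRT18 and KRT19 were higher in the GOLPH3 libraries (log2 differences 1.26 and 1.92, limma adjusted p = 0.0363 and 0.0044). Of 10 markers of HEK293-like cells, chosen with earlier results of these data known, 9 were lower in the GOLPH3 libraries with limma at an adjusted p under 0.05, beside 4.12% of all genes tested. The remaining marker, PAX2, was similar in both lines, with 134, 112 and 130 normalized reads in GOLPH3 1, 2 and 3 and 104, 88.7 and 148 in Vector 1, 2 and 3 (log2 difference 0.17, limma adjusted p = 0.853). These 10 markers summed to 142 to 158 normalized reads in the GOLPH3 libraries, most of it PAX2 (112 to 134), and to 9369, 5517 and 14606 in Vector 1, 2 and 3. IRS4, HAND1, NEFM, UCHL1 and ZEB2 were at 0 in every GOLPH3 library. CDH2 (N-cadherin) and VIM (vimentin), also on this list, serve in the paper as mesenchymal markers. Their RNA was lower in the GOLPH3 libraries (log2 differences -8.03 and -7.44), while the paper's western blots found both proteins raised by GOLPH3. The list name is a label, and the identity of the cells was not tested. Fibroblast markers summed to 488 to 1517 normalized reads, most of it COL1A1, and COL1A2, DCN and FAP had at most 2.15 normalized reads in any library. The list's only call was PDGFRA, which was lower, with at most 0.825 normalized reads in the GOLPH3 libraries and 5.15, 7.67 and 24.9 in Vector 1, 2 and 3 (limma adjusted p = 0.0227), and COL3A1 reached 46.3 in Vector 3.

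Among the 10 genes, ANKRD1 was the only one that passed the test between the lines, and it was far lower in the GOLPH3 libraries. YAP1, WWTR1, TEAD1 and TEAD4 stayed within 2.19-fold over all 6 libraries. CYR61, CTGF, AMOTL2, LATS2 and AXL had higher means in the GOLPH3 libraries, but their groups overlapped, and each of these 5 genes was highest in GOLPH3 2, then in GOLPH3 3 and then in Vector 1. The test was limma on log2(normalized reads + 1), fitted to 26536 genes that reached 1 normalized read in 3 or more libraries, all 10 genes among them. Of all genes tested, 5.07% had an adjusted p under 0.05 (4.12% lower and 0.953% higher in the GOLPH3 libraries), beside 1 of 10 here, which was lower. The median log2 difference of the 10 genes was 0.33 and 7 were positive, against a median of 0.02 and 50.9% positive over all genes tested.

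YAP1, on chromosome 11 (102110461 to 102233423, plus strand, GRCh38), had 2737, 2534 and 2153 normalized reads in GOLPH3 1, 2 and 3 and 2254, 3272 and 1931 in Vector 1, 2 and 3. The highest and the lowest library both carried the Vector label, and the means were nearly equal, 2475 ± 297 against 2486 ± 700 (SD, n = 3 each). The log2 difference was 0.02 (standard error 0.29, 95% confidence interval from -0.61 to 0.66, limma adjusted p = 0.981), and its sign turned under quantile normalization (-0.05).
WWTR1, on chromosome 3 (149517235 to 149736714, minus strand), had 1183, 1337 and 1142 normalized reads in GOLPH3 1, 2 and 3 and 1298, 1351 and 775.8 in Vector 1, 2 and 3. Vector 3 alone stood low, and without it the log2 difference moved from 0.14 (95% interval from -0.52 to 0.79, limma adjusted p = 0.859) to -0.12. Per kilobase of annotated exon, YAP1 was the more abundant of the coactivators in every library, with 307 to 520 normalized reads per kilobase against 92.2 to 161 for WWTR1.

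TEAD1 (chromosome 11, 12674591 to 12944483, plus strand) and TEAD4 (chromosome 12, 2959330 to 3040673, plus strand) encode 2 of the 4 TEAD factors, which bind DNA through a shared TEA domain and carry YAP or TAZ. TEAD1 had 3355, 3374 and 1745 normalized reads in GOLPH3 1, 2 and 3 and 3253, 3823 and 2209 in Vector 1, 2 and 3. It was lowest in the P13 library of either line, and the groups overlapped (log2 difference -0.16, standard error 0.34, limma adjusted p = 0.855). TEAD4 had 400, 618 and 662 normalized reads in GOLPH3 1, 2 and 3 and 622, 441 and 794 in Vector 1, 2 and 3. It was highest in the P13 library of either line and lowest in GOLPH3 1 and Vector 2, with a log2 difference of -0.14 (standard error 0.33, limma adjusted p = 0.872). The signs of both differences turned when single libraries were left out. TEAD1 reached 0.16 without GOLPH3 3, and TEAD4 reached 0.09 without GOLPH3 1.
The other TEAD genes and the VGLL genes, whose products compete with or assist YAP and TAZ at TEAD, gave 1 call among 5 genes tested, for VGLL2, which was lower, beside the 4.12% of all genes tested that were called lower. VGLL2 had 0 reads in every GOLPH3 library and 9.26, 7.67 and 19.7 normalized reads in Vector 1, 2 and 3, at least 4.12-fold lower against a floor of 3 reads per library (limma adjusted p = 0.00464). With a Vector library left out VGLL2 had reads in fewer than 3 libraries and was not tested. VGLL3 had 42.9, 63.5 and 36.3 against 102, 153 and 133 normalized reads, and TEAD3 had 632, 769 and 883 against 374, 413 and 455. Neither passed the test (log2 differences -1.44 and 0.87, limma adjusted p = 0.0706 and 0.122). Their groups did not overlap, as in 12.8% of all genes tested for lower and 9.20% for higher values in the GOLPH3 libraries. VGLL3 passed with DESeq2 (adjusted p = 0.0146). Per kilobase of exon, the mean level in the Vector libraries was 301 normalized reads for TEAD1, 272 for TEAD4 and 136 for TEAD3. In the GOLPH3 libraries it was 275 for TEAD1 and 246 for TEAD4, and TEAD3 lay between them.

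CTGF and CYR61 encode secreted matrix-associated proteins of the CCN family and are the targets most often used to read YAP and TAZ activity. CTGF lies on chromosome 6 (131948176 to 131951373, minus strand) and ANKRD1, which encodes an ankyrin repeat protein of muscle and stressed cells, on chromosome 10 (90912096 to 90921276, minus strand). Upstream sequence of both genes is shown because both hold repeats of GGAATG, the core of the sequence that TEAD factors bind, while ANKRD1 passed the test between the lines, as lower, and CTGF, with a higher mean, did not. The CTGF stretch is chr6:131951423-131951622 and the ANKRD1 stretches are chr10:90921277-90921337 and chr10:90921198-90921227, all of the minus strand of GRCh38.p14, written 5′ to 3′, with GGAATG in capitals. The second ANKRD1 stretch overlaps an exon in GENCODE 29.
CTGF: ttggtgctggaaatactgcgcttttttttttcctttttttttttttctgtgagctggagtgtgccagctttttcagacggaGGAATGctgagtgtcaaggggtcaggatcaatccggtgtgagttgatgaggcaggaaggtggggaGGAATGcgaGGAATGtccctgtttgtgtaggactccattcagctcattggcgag
ANKRD1 first: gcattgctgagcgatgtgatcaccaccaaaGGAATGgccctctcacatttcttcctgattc
ANKRD1 second: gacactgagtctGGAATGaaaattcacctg
The 3 copies in CTGF begin 169, 104 and 95 bases before the RefSeq start of transcription, and the 2 copies in ANKRD1 begin 220 and 128 bases before it. Windows of 300 bases (250 before to 50 after the start) from RefSeq were found for 7 of the 10 genes. GGAATG was searched on both strands, that is also as CATTCC. Of 35116 RefSeq windows, 14.0% held at least 1 copy, 1.37% at least 2 and 0.128% at least 3. AXL, AMOTL2, LATS2 and YAP1 had 1 copy each in 1 of their windows, and WWTR1 had none. These are matches of letters only, and binding was not measured.

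CTGF had 242, 953 and 718 normalized reads in GOLPH3 1, 2 and 3 and 581, 198 and 333 in Vector 1, 2 and 3. The groups overlapped, because GOLPH3 1 stood below Vector 1 and Vector 3. The means were 638 ± 363 and 371 ± 194 (SD, n = 3 each), with a log2 difference of 0.70 (standard error 0.52, 95% interval from -0.43 to 1.83, limma adjusted p = 0.534).
CYR61, on chromosome 1 (85580761 to 85583962, plus strand), had 1836, 5903 and 4570 normalized reads in GOLPH3 1, 2 and 3 and 2835, 1242 and 2763 in Vector 1, 2 and 3. Its libraries fell in the same order as those of CTGF, and its log2 difference was 0.78 (standard error 0.45, 95% interval from -0.20 to 1.76, limma adjusted p = 0.411). Within each line the library at P12 was above the one with the lowest P number, by 3.22-fold in GOLPH3 and 2.28-fold in Vector for CYR61, and by 3.95-fold and 2.93-fold for CTGF. The means of the lines were 1.80-fold apart for CYR61 and 1.72-fold apart for CTGF. A ratio of means is not a like measure to a ratio of single libraries, since averaging narrows it. Over all 6 libraries the highest and the lowest single library were 4.75-fold apart for CYR61 and 4.81-fold apart for CTGF.

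AMOTL2 and LATS2 are targets that also act back on the pathway, AMOTL2 as an angiomotin-family scaffold that holds YAP at junctions and LATS2 as the kinase that phosphorylates YAP and TAZ. AMOTL2, on chromosome 3 (134355874 to 134375479, minus strand), had 967, 2992 and 2283 normalized reads in GOLPH3 1, 2 and 3 and 1960, 822 and 1081 in Vector 1, 2 and 3. Its order of libraries was again that of CTGF, with a log2 difference of 0.64 (standard error 0.44, limma adjusted p = 0.498).
LATS2, on chromosome 13 (20973032 to 21061547, minus strand), had 536, 1173 and 916 normalized reads in GOLPH3 1, 2 and 3 and 677, 584 and 486 in Vector 1, 2 and 3. It varied least of the 5 genes, 2.42-fold over all libraries, with GOLPH3 2 and GOLPH3 3 above every Vector library and GOLPH3 1 among the Vector libraries (log2 difference 0.53, standard error 0.34, limma adjusted p = 0.470).

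AXL encodes a receptor tyrosine kinase for GAS6, tied to invasion and drug resistance in carcinoma, and lies on chromosome 19 (41219203 to 41261766, plus strand). It had 776, 7353 and 2209 normalized reads in GOLPH3 1, 2 and 3 and 1663, 347 and 421 in Vector 1, 2 and 3. GOLPH3 2 stood far above the other libraries, and GOLPH3 1 lay below Vector 1. The spread over all libraries was 21.2-fold, and the means were 3446 ± 3459 and 810 ± 740 (SD, n = 3 each). The log2 difference was 1.90 (standard error 0.73, 95% interval from 0.31 to 3.49), with an unadjusted p of 0.0234 and an adjusted p of 0.190 from limma. Of all 26536 genes tested, 4663 had an unadjusted limma p under 0.05. With a library left out the log2 difference ranged from 1.07 without GOLPH3 2 (limma adjusted p = 0.462) to 2.69 without GOLPH3 1, where it passed the threshold (limma adjusted p = 0.0221). Reads from a gene on the opposite strand could be counted with AXL and WWTR1, since strand-specific counting is not stated, but AC011510.1 and WWTR1-AS1 had at most 35.5 and 10.3 normalized reads in any library.

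The shared order of libraries is a pattern seen after the values were known. GOLPH3 2, GOLPH3 3 and Vector 1 came first, in this order, in 5 of the 10 genes and in 2.14% of all genes tested. They were the 3 highest libraries, in any order, in 5 of the 10 genes and in 5.81% of all genes tested. Among 16 other signature targets, F3, CRIM1, GADD45A and NUAK2 had these 3 libraries highest, and all 4 ran GOLPH3 2, Vector 1, GOLPH3 3. Among 19 upstream regulators, RASSF1 and AJUBA had them highest, and AJUBA, a LIM protein that restrains LATS kinases, fell in exactly the order of CTGF, with 790.1, 2998 and 1639 normalized reads in GOLPH3 1, 2 and 3 and 1613, 585 and 910 in Vector 1, 2 and 3. These 6 genes were picked after their values were seen. The mitochondrial share of reads did not follow this order, with 9.97%, 4.41% and 9.75% in GOLPH3 1, 2 and 3 and 7.08%, 9.88% and 4.71% in Vector 1, 2 and 3.

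**Figure D1:**
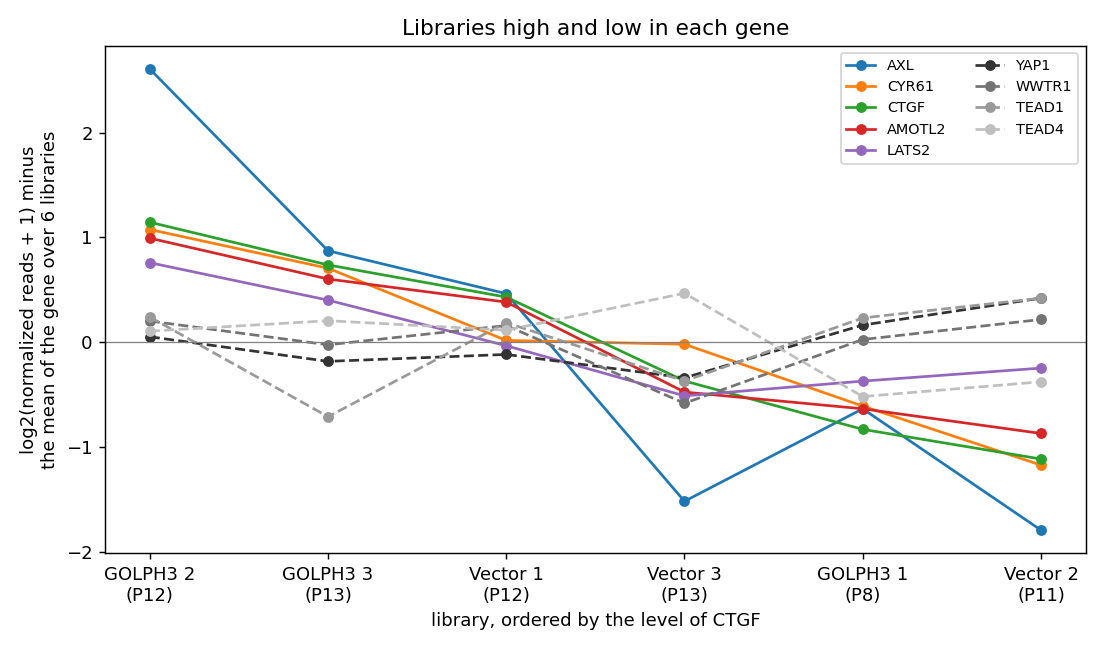
Log2(normalized reads + 1) of 9 genes in each library, less the gene's mean over the 6 libraries; the horizontal axis lists the libraries in the order of CTGF, and lines join the points of a gene. The 5 targets drawn in colour are highest in GOLPH3 2, GOLPH3 3 and Vector 1, the 3 libraries on the left, while YAP1, WWTR1, TEAD1 and TEAD4 (grey, dashed) do not follow this order.

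**Figure D2:**
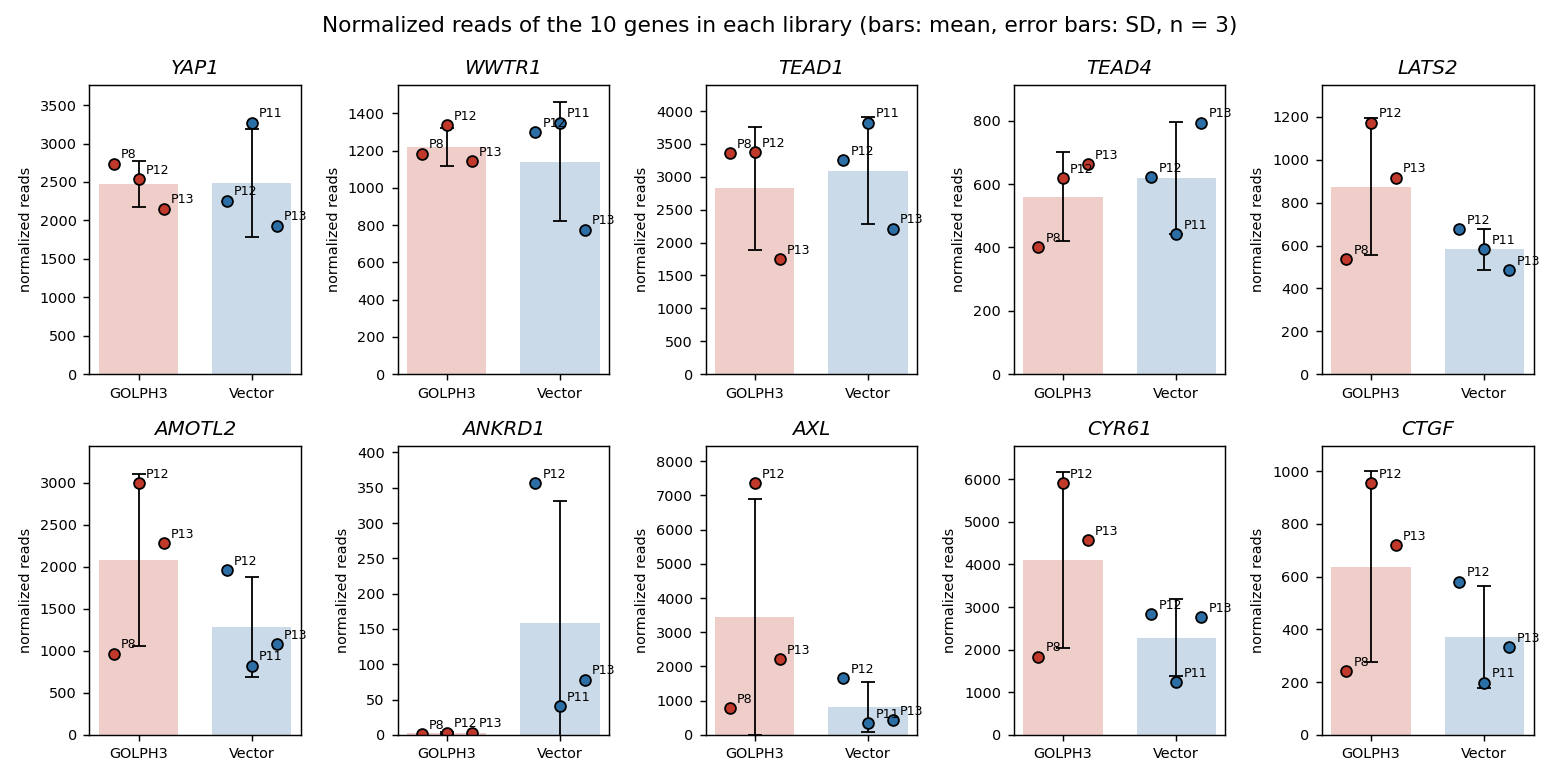
Normalized reads of the 10 genes in each library (points, with the P number), with the mean (bar) and SD (error bar, n = 3, not drawn below 0) of each line on axes that start at 0. The GOLPH3 library at P8 is the lowest of its line in LATS2, AMOTL2, AXL, CYR61 and CTGF, and ANKRD1 is near 0 in all 3 GOLPH3 libraries.

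Comparing libraries with the same P number gave positive differences in both pairs for AXL, CYR61, CTGF, AMOTL2 and LATS2, and also for YAP1 and WWTR1. On the log2 scale, GOLPH3 minus Vector was 2.14 at P12 and 2.39 at P13 for AXL, 1.06 and 0.73 for CYR61, 0.71 and 1.11 for CTGF, 0.61 and 1.08 for AMOTL2, and 0.79 and 0.91 for LATS2. For YAP1 they were 0.17 and 0.16, and for WWTR1 0.04 and 0.56. TEAD1 had 0.05 and -0.34, TEAD4 -0.01 and -0.26, and ANKRD1 -6.38 and -4.23. The share of all genes tested that were positive in both pairs was not computed. Each of these values sets 1 library against 1 and has no replicate check. With the P number as a block in limma AXL, CYR61, CTGF, AMOTL2, LATS2 and ANKRD1 passed the threshold, 6 of the 10, against 22.9% of all genes tested under that model. The block leaves GOLPH3 1 and Vector 2 without a partner, so the model compares the P12 and P13 pairs alone, with 1 residual degree of freedom. Its p-values therefore rest largely on the variance that eBayes takes from all genes tested. They do not measure the spread between the libraries of a line. The blocked log2 differences were 2.27 for AXL, 0.89 for CYR61, 0.91 for CTGF, 0.84 for AMOTL2 and 0.85 for LATS2 (limma adjusted p = 6.28e-17, 0.000156, 0.000712, 0.00036 and 0.000615). YAP1, WWTR1, TEAD1 and TEAD4 did not pass it (limma adjusted p from 0.294 to 0.713).

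**Figure D3:**
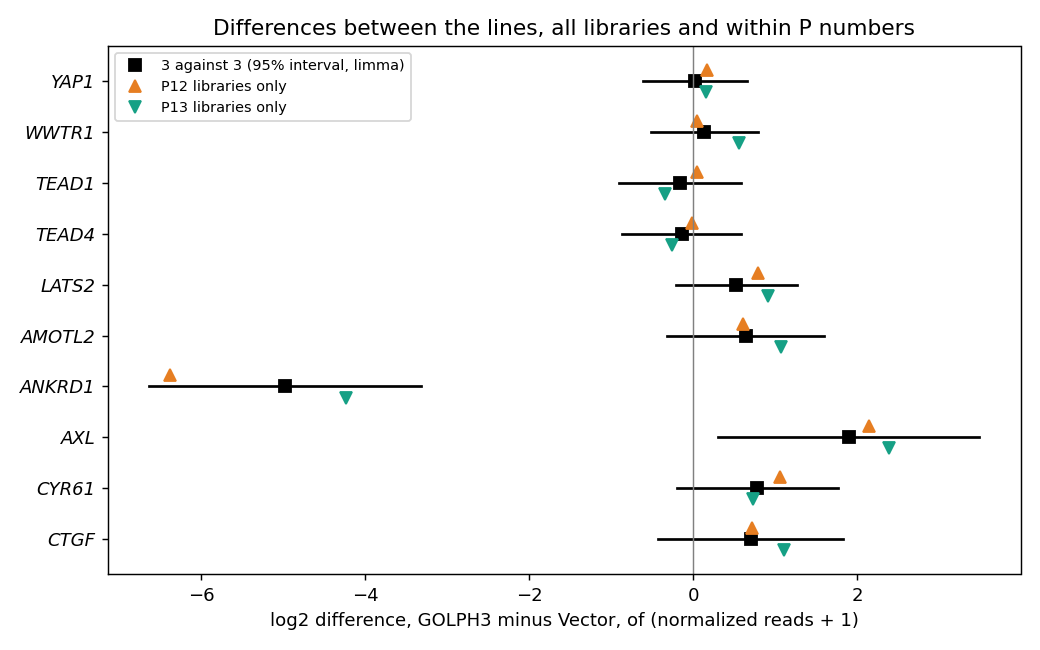
Log2 difference, GOLPH3 minus Vector, of each of the 10 genes over all 6 libraries (squares with 95% interval from limma) and within the P12 and the P13 libraries (triangles, 1 library against 1). ANKRD1 lies far to the left at -4.98, and of the 9 other genes only AXL has an interval that leaves out 0, from 0.31 to 3.49. The intervals are not adjusted for the number of genes tested, and AXL did not pass after adjustment.

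ANKRD1 had 1.07, 3.30 and 3.20 normalized reads in GOLPH3 1, 2 and 3, which are 1, 4 and 3 reads, and 356, 40.5 and 78.1 in Vector 1, 2 and 3. All GOLPH3 libraries lay below all Vector libraries, as in 12.8% of all genes tested, with the reverse in 9.20%, and none of the other 9 genes had groups that did not overlap. The log2 difference was -4.98 (standard error 0.76, 95% interval from -6.63 to -3.32, limma adjusted p = 0.0015). Over the 14 alternatives it lay between -5.95 and -4.10 and passed the threshold in each, with adjusted p up to 0.0128. From 8 reads in the GOLPH3 libraries and 474 in the Vector libraries the level was 59.9-fold lower, with a 95% interval from 30.1 to 139 for counting error only (exact binomial). Vector 1 alone held 346 of the 474 reads. Without it the level was 23.7-fold lower (95% counting interval from 11.7 to 56.1), a value computed after the data were seen. Vector 1 (P12), the Vector library that was also highest in CTGF, had 8.79 times the ANKRD1 level of Vector 2 (P11), against 2.93 times for CTGF. ANKRD1 was thus the only one of the 6 targets with a lower mean in the GOLPH3 libraries. Its direction between the lines was that of 9 of the 10 HEK293-like markers and of the 4.12% of all genes tested that were called lower. Those markers were chosen with earlier results of these data known, so the shared direction is not a test. Within the Vector libraries the sum of those markers was highest in Vector 3 and ANKRD1 in Vector 1, as were 3 of the 9 markers called lower, VIM, ZEB2 and LIN28B. The part of HEK293-like cells in the ANKRD1 difference was not tested, and in bulk RNA fewer cells that express a gene and less RNA per cell cannot be told apart.

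The remaining genes of a YAP/TAZ target signature of 22 genes, which includes the 6 targets above, gave 2 calls among 16, for FOXF2 and RBMS3, both lower, beside the 4.12% of all genes that were called lower. The median log2 difference of the 16 was 0.22, and 10 were positive. Groups did not overlap in 7 of the 16, against 12.8% of all genes tested for lower and 9.20% for higher values. MYOF, DOCK5 and ARHGEF17, named after their values were seen, were higher without passing (log2 differences 0.67, 0.76 and 0.78, limma adjusted p = 0.280, 0.224 and 0.211). FOXF2, RBMS3, CCDC80 and PTPN14 were lower. FOXF2, a forkhead factor of mesenchyme, had 0 reads in every GOLPH3 library and 355, 126 and 836 normalized reads in Vector 1, 2 and 3, at least 148-fold lower (limma adjusted p = 1.1e-05). RBMS3, an RNA-binding protein, had 9.66, 5.77 and 5.34 against 86.5, 30.7 and 66.9 normalized reads (log2 difference -2.89, limma adjusted p = 0.00955). CCDC80, a matrix protein, had 11.8, 13.2 and 24.6 against 66.9, 31.8 and 106 and did not pass (log2 difference -1.90, limma adjusted p = 0.0839), but did with DESeq2 (adjusted p = 0.00888). All 3 were, like ANKRD1, low or silent in the GOLPH3 libraries, and the part of HEK293-like cells in this was not tested. RBMS3 lost its call without Vector 1 and without Vector 3, and FOXF2 was not tested when a Vector library was left out, since it then had reads in fewer than 3 libraries. Of the signature genes that did not pass, GADD45A, named after its values were seen, is a stress-response gene that had 1026, 8144 and 3436 normalized reads in GOLPH3 1, 2 and 3 and 3580, 659.5 and 1799 in Vector 1, 2 and 3 (log2 difference 0.92, limma adjusted p = 0.548).

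Of the core kinase cassette, 0 of 6 genes passed the limma test, near the 5.07% called among all genes tested. None of the 6 had an unadjusted limma p under 0.05, beside 4663 of all 26536 genes tested. None was called with edgeR or DESeq2, which called 1113 of 16908 and 1991 of 22947 genes. LATS1, the other LATS kinase, had 974, 954 and 574 normalized reads in GOLPH3 1, 2 and 3 and 1188, 1355 and 853 in Vector 1, 2 and 3 (log2 difference -0.45, limma adjusted p = 0.510). The LATS cofactors MOB1A and MOB1B were highest in Vector 2 and then GOLPH3 1, the libraries in which CTGF was lowest. MOB1A had 4176, 1728 and 2182 against 2554, 5743 and 2652 normalized reads, and MOB1B had 1422, 703 and 638 against 1113, 1993 and 789 (limma adjusted p = 0.631 and 0.588). Including STK3, 3 of the 6 genes had GOLPH3 1 and Vector 2 as their highest libraries, as did YAP1 among the 10 genes and 12.3% of all genes tested.

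Of 19 upstream and junctional regulators, 1 passed the test, AMOT, the founding angiomotin, which binds YAP directly and was lower, a share near the 5.07% called among all genes tested. AMOT had 260, 125 and 154 normalized reads in GOLPH3 1, 2 and 3 and 4740, 3225 and 12337 in Vector 1, 2 and 3 (log2 difference -5.06, limma adjusted p = 2.8e-05). The groups did not overlap, as in 12.8% of all genes tested in this direction. The order of AMOT within the Vector libraries was that of the summed HEK293-like markers, and the part of HEK293-like cells in the AMOT difference was not tested. Its paralogue AMOTL1, named after its values were seen, did not pass, with a log2 difference of -0.57 (limma adjusted p = 0.363), and AMOTL2 had a higher mean in the GOLPH3 libraries, as given above. NF2, which encodes merlin, an activator of the kinase cassette, had 1944, 2455 and 3000 against 1563, 1189 and 1321 normalized reads, and WWC3 had 561, 309 and 476 against 233, 251 and 200. Neither passed (log2 differences 0.85 and 0.94, limma adjusted p = 0.124 and 0.149). Their groups did not overlap, as in 9.20% of all genes tested for higher values in the GOLPH3 libraries.

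**Figure D4:**
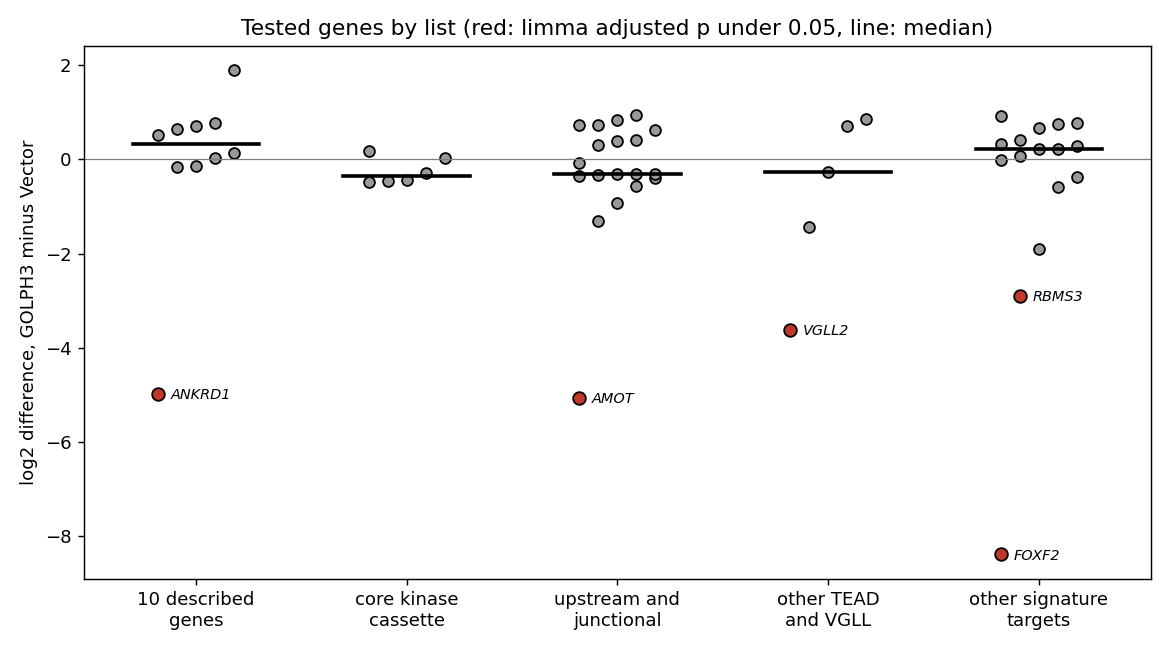
Log2 difference, GOLPH3 minus Vector, of every tested gene of 5 lists (points; red with an adjusted p under 0.05 from limma; black line, median of the list). The 5 red points, ANKRD1, AMOT, VGLL2, RBMS3 and FOXF2, all lie below -2, and the list medians lie between -0.36 and 0.33.

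**Figure D5:**
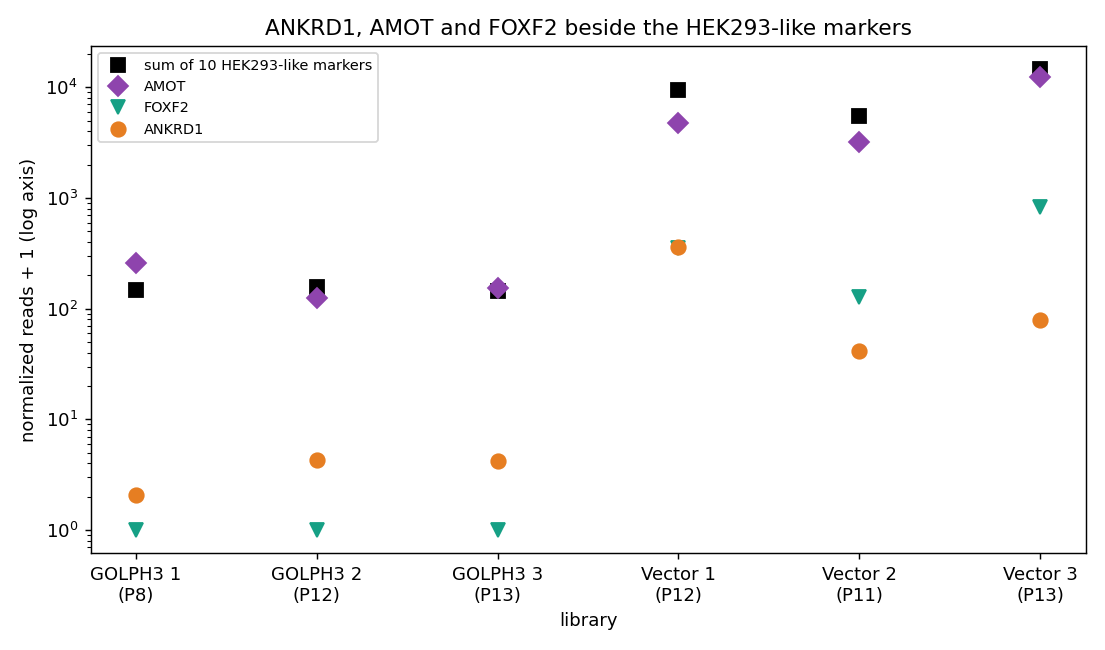
Normalized reads + 1 on a log axis in each library for ANKRD1, AMOT, FOXF2 and the sum of 10 HEK293-like markers. All 4 are higher in each Vector library than in any GOLPH3 library, and within the Vector libraries ANKRD1 is highest in Vector 1 while the other 3 are highest in Vector 3. The markers were chosen with earlier results of these data known, so the shared direction between the lines is not a test.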

How the data were processed

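The authors deposited a table of normalized signal per gene, with a column per library. Per the labels' processing notes, fastp 0.20.0, HISAT2 2.1.0, featureCounts 1.6.1, Cufflinks and DESeq2 were named together with GRCh38, without role or order. The annotation and strand setting are not given in the sources used here. In every library 100% of nonzero values were whole multiples of 1 step (within 0.05 of a read), so reads were recovered. The table's 44 second rows of a gene identifier were added to the first. Positions and exon lengths were taken from GENCODE 29 (GRCh38), which held 96.4% of the identifiers.

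Because the values are normalized, limma 3.58.1 (R 4.3.3) was fitted to log2(value + 1) with the trend option of eBayes, GOLPH3 against Vector, on genes that reached 1 in 3 or more libraries, with Benjamini-Hochberg adjustment over all genes tested. The alternatives were quantile normalization, no filter, a minimum of 10, a pseudocount of 0.1, edgeR 4.0.16 and DESeq2 1.42.0 on recovered reads, the replicate number or the P number as a block, and each library left out. The scripts were tested on simulated data. Within groups the chi-square per degree of freedom between libraries was at least 74.9, so each counted as a sample.

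The genes and lists were chosen with earlier results of these data known. The text names all 10 genes and, of each other pathway list, the genes called and, where fewer than 3 were called, the 3 with the smallest p. Other genes were named after their values were seen. Marker lists serve only as levels beside results.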

Additional observations from a re-analysis of the deposited data

How the results depend on the processing

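The count of the 10 genes with an adjusted p under 0.05 was 1 (ANKRD1) under quantile normalization, other filters, another pseudocount, edgeR, DESeq2 and the replicate block, and 1 to 2 with a library left out, AXL being added without GOLPH3 replicate 1. With the P number as a block it was 6 of the 10 genes, 15 against 3 of the 22 signature targets and 11 against 2 of the 30 other regulators tested. Of all genes tested, 22.9% were called with this block, against 5.07% without it. Signature targets called ranged from 1 to 4 with a library left out, with 1 without Vector replicate 1 and 1 without Vector replicate 3. Regulators called ranged from 1 to 2 in those fits, with 1 without any single Vector library, and were 1 with a minimum of 10 and 1 with edgeR, where VGLL2 was not tested. DESeq2 called 4 signature targets, with CCDC80 added, and 3 regulators, with VGLL3 added. For single genes, 123 of 140 values under alternatives kept their direction and side of the threshold, 6 newly passed the threshold and 11 changed sign, all of these for the 4 coactivator and TEAD genes with small differences. YAP1 turned to -0.0455 under quantile normalization, -4e-04 with edgeR and -0.0063 with DESeq2, and ranged from -0.14 to 0.24 with a library left out. WWTR1 ranged from -0.12 to 0.28, TEAD1 from -0.38 to 0.16 and TEAD4 from -0.36 to 0.0873 with a library left out. The causes of these changes were not tested. The replicate block left the counts at 1, 3 and 2. It is not a pairing given by the labels. Same-numbered libraries deviated from their group means with correlations of -0.23, -0.15 and 0.26, against 0.26 in both the P12 and the P13 pair, the latter also being replicate 3. The highest correlation of a GOLPH3 with a Vector library was 0.33, for GOLPH3 1 (P8) and Vector 2 (P11), which share neither number. Depth limits ANKRD1, VGLL2 and FOXF2 in the GOLPH3 libraries, which had at most 4 reads.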
